A study of Mus musculus with 18 samples.

Results

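Voltage-gated calcium channels let calcium into a neuron when its membrane depolarises. The analysis covered 10 of their subunit genes: the pore-forming alpha1 genes Cacna1a, Cacna1b, Cacna1c, Cacna1h and Cacna1i, the alpha2delta genes Cacna2d1, Cacna2d2 and Cacna2d3, and the beta genes Cacnb3 and Cacnb4. They were picked by symbol from a deposited table of 17198 genes, and each of the 10 had 1 row. The table held RNA sequencing values of neurons cultured from mouse dorsal root ganglia (DRG), which hold the cell bodies of the body's sensory neurons. Cultures were wild type (WT) or heterozygous (HET) for a tm1a allele of Dynlrb1, which encodes a light chain of the dynein motor. RNA was taken after 12, 24 or 48 h in culture, with 3 biological repeats in each of the 6 groups, 18 samples in all. Repeats carried the numbers 1, 2 and 5 in groups taken after 12 or 24 h, but 1, 2 and 3 in those taken after 48 h; values are listed in that order.

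A high-voltage-activated channel is built from 1 alpha1 subunit, which forms the pore and senses voltage, an intracellular beta subunit and an extracellular alpha2delta subunit. Beta and alpha2delta subunits help to bring the pore to the surface and set how much current it passes, whereas T-type pores open at low voltage and work without them in many settings. In DRG neurons the N-type pore Cav2.2 (Cacna1b) drives transmitter release at the terminals, the T-type pore Cav3.2 (Cacna1h) shapes excitability, and alpha2delta-1 (Cacna2d1), the binding site of gabapentin, is known to rise after peripheral nerve injury. Dissociation of a ganglion for culture cuts the axons of its neurons. The earliest samples here were taken at 12 h, so no uninjured state was measured.

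All values were adjusted by the authors before deposit, so sequencing depth is unknown and precision rests on the spread between cultures. Changes were tested with limma on log2(normalized count + 1) over all 17198 genes, with Benjamini-Hochberg adjusted p-values and a threshold of 0.05; "rose", "fell" and "called" below mean past that threshold. At each time the HET cultures all held less Dynlrb1 RNA than any WT culture, with an averaged log2 difference of -0.83 (SE 0.07, limma adjusted p = 2.85e-05). All 12 markers on a list for neurons averaged at least 1 FPKM (read fragments scaled to gene length and library size) in every group, and their summed FPKM was 6198 to 8945 in every library. The third HET culture at 48 h stood apart. Among 18 libraries it was the 1 whose log2 values correlated best with a group of another time: r across genes was 0.993 with the WT mean at 24 h and 0.984 with the other HET cultures at 48 h. Its summed FPKM for 12 markers of sensory neuron subtypes was 1616, the highest of the HET cultures at 48 h. Those had a mean of 1185 with it included and a lowest value of 863, and the WT cultures at 48 h ran from 679 to 942. Fold changes of the 10 genes whose call from 12 to 48 h in HET changed without the third HET culture at 48 h are given both ways, as are some others. Markers of other cells moved with time as well, and 9 of the 12 neuron markers were called from 12 to 48 h in WT (4 rose, 5 fell) although their sum overlapped. In that comparison 47.1% of all genes were called, 30.0% higher and 17.1% lower, the background for all marker counts given here. The sum of 6 fibroblast markers was 39.9 to 88.2 FPKM in WT at 12 h and 107 to 154 at 48 h (4 of 6 rose), that of 5 macrophage markers was 16.6 to 23.1 and then 41.0 to 81.5 (2 rose, 1 fell), and that of 4 neutrophil markers 6.01 to 225 and then 3.68 to 4.91 (4 fell). Of 10 markers of Schwann cells and satellite glia 2 rose and 3 fell, with sums of 544 to 695 and then 473 to 499.9, and of 6 markers of endothelium and mural cells 1 rose and 3 fell. Their part in the results was not tested. In a bulk sample, fewer cells of a type and less RNA per cell cannot be told apart.

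Ranked by FPKM, which corrects for gene length, Cacnb3 was the most abundant of the 10 genes, at 110.6 ± 18.8 (SD over 18 libraries). Cacna2d1 followed at 55.3 ± 14.7, and Cacnb3 exceeded it in 18 of 18 libraries. Cacna1b, at 18.3 ± 3.83, was the leading pore gene. It was above Cacnb4, at 17.6 ± 4.58, in only 11 of 18 libraries, so those neighbours were not separated. The order turned with time: Cacnb4 was above Cacna1b in 5 of 6 libraries at 12 h, and Cacna1b above Cacnb4 in 6 of 6 at 48 h. Cacna1a, the P/Q-type pore, averaged 13.1 ± 2.89 FPKM. Cacna1c, the L-type pore, and Cacna2d3 were level at 9.39 ± 1.86 and 9.31 ± 1.39, with Cacna1c higher in 8 of 18 libraries. Cacna2d2 averaged 6.46 ± 2.34 and Cacna1h 5.17 ± 3.07 FPKM, though Cacna1h was above Cacna1c in all 3 WT libraries of 48 h. Cacna1i, the T-type pore Cav3.3, was last at 1.02 ± 0.55 and stood below Cacna1h in 18 of 18 libraries. The pool of measured subunits was thus led by 1 gene per class: Cacna1b for the pores, Cacna2d1 for alpha2delta and Cacnb3 for beta.

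**Figure D1:**
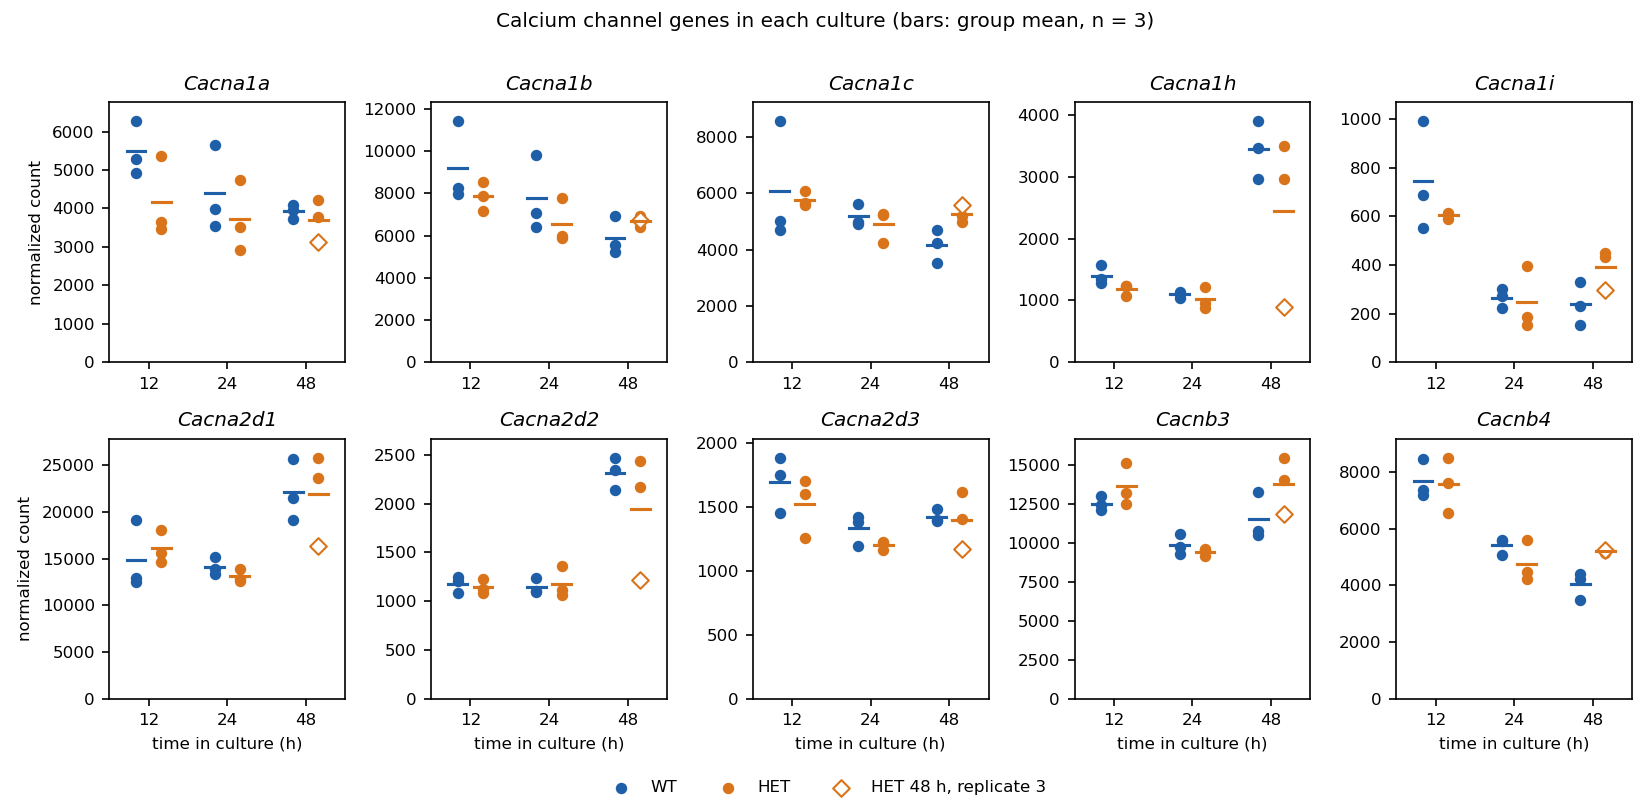
Authors' normalized count (linear axis from 0, own scale per panel) of each of the 10 genes in every culture by hours in culture; blue is WT, orange HET, bars are means of 3 cultures and the open diamond is the third HET culture at 48 h. Cacna1h, Cacna2d1 and Cacna2d2 were highest at 48 h apart from that culture, in which Cacna1h was at 895 normalized counts against 2966 and 3493 in the other HET cultures.

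Among the alpha2delta genes, Cacna2d1 and Cacna2d2 rose between 24 and 48 h in WT, and Cacna2d1 in HET as well, whereas Cacna2d3 passed the test in no comparison. Cacna2d1 (ENSMUSG00000040118; GRCm38 chr5:15934691-16374511, plus strand) read 12878, 12490 and 19150 normalized counts in the WT cultures at 12 h, 13878, 13374 and 15183 at 24 h, and 21432, 19154 and 25679 at 48 h. In HET cultures it read 15545, 14612 and 18085 at 12 h, 12550, 12801 and 13894 at 24 h, and 23676, 25772 and 16366 at 48 h. The 48 h cultures of either genotype all lay above its 24 h cultures. The 48 h gain over 24 h was 1.55-fold in WT (log2 0.63, SE 0.17, limma adjusted p = 0.0125) and 1.65-fold in HET (log2 0.72, SE 0.17, adjusted p = 0.0373), where it was 0.92 (adjusted p = 0.00108) without the third culture at 48 h. The WT call was lost without the second WT repeat at 24 h (log2 0.59, adjusted p = 0.0533). From 12 to 24 h the log2 change was -0.04 in WT and -0.29 in HET, and neither passed the test. From 12 to 48 h it was 0.59 in WT (adjusted p = 0.00882) and 0.43 in HET (adjusted p = 0.0941), where it became 0.63 (adjusted p = 0.00804) without the third HET culture at 48 h.

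Cacna2d2 (ENSMUSG00000010066; GRCm38 chr9:107399612-107529343, plus strand), which encodes alpha2delta-2, read 1252, 1080 and 1211 normalized counts in WT at 12 h, 1237, 1108 and 1094 at 24 h, and 2470, 2343 and 2142 at 48 h. The HET cultures read 1224, 1089 and 1129 at 12 h, 1360, 1065 and 1116 at 24 h, and 2435, 2174 and 1219 at 48 h. Values at 12 and 24 h overlapped in both genotypes, and at 48 h only the third HET culture remained in their range. The WT gain from 24 to 48 h was 2.02-fold (log2 1.02, SE 0.18, limma adjusted p = 0.00343). In HET the log2 change from 12 to 48 h was 0.70 (SE 0.18, adjusted p = 0.0227), and 1.01 (adjusted p = 6.63e-05) without the third culture. Cacna2d3 (ENSMUSG00000021991; GRCm38 chr14:28904943-29721864, minus strand), which encodes alpha2delta-3, ran from 1389.8 to 1881 normalized counts in WT cultures at 12 and 48 h and from 1196 to 1422 at 24 h. Its log2 change from 12 to 48 h was -0.24 in WT (SE 0.13, adjusted p = 0.141) and -0.12 in HET (adjusted p = 0.552), and the HET value was -0.00039 without the third culture at 48 h. It was called lower in WT (-0.35, adjusted p = 0.0306) on the authors' plain adjusted columns.

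The promoters of the risers Cacna2d1 and Cacna2d2 are shown with that of Cacna1i, the gene with the largest fall, as examples of the sequence before the start. Each is the 250 bases before the RefSeq start in GRCm38.p6, printed 5′ to 3′ on the gene's strand, with CG dinucleotides in capitals.
Cacna2d1 (chr5:15934441-15934690, plus): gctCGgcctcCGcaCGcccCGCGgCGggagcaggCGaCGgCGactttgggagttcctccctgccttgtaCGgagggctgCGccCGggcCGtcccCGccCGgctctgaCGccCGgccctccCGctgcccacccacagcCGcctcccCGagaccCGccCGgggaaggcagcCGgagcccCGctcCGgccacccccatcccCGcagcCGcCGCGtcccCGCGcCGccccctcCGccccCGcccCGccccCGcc
Cacna2d2 (chr9:107399630-107399879, plus): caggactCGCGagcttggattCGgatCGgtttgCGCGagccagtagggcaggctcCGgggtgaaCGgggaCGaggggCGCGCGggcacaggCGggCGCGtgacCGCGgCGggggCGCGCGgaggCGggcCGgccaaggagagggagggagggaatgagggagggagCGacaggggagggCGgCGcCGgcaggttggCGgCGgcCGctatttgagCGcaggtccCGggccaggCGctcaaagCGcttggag
Cacna1i (chr15:80286988-80287237, plus): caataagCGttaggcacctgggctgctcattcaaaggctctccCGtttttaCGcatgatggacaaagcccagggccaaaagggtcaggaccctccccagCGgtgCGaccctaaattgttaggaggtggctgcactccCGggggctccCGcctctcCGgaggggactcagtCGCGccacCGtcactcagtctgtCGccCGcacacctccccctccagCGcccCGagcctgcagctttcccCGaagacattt
Cacna2d1 held 36 CG pairs and Cacna2d2 34, numbers reached by 2.6% and 3.5% of the 32851 promoters in the RefSeq table. Cacna1i held 16, a number reached by 25.4%, and the median promoter held 6. G and C made up 82.4%, 74.4% and 62.4% of the 3 sequences. CG number did not divide the genes by direction: Cacna1b, which fell in WT, held 29, the uncalled Cacna2d3 30, Cacna1c 2 to 48 over 3 starts, Cacnb4 4 to 37 over 3 and Cacnb3 2 to 23 over 2. In all, 8 of the 10 genes had an entry, with 13 starts. The AP-1 site TGANTCA and the CRE site TGACGTCA, searched on both strands, were found in 0 of these 13 windows. Over all promoters of the same length, 6.75% held the first and 1.55% the second.

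Among the pores, Cacna1h rose late, like the alpha2delta pair. Cacna1h (ENSMUSG00000024112; GRCm38 chr17:25374285-25433783, minus strand) read 1352, 1279 and 1569.65 normalized counts in WT at 12 h, 1043, 1104 and 1141 at 24 h, and 3898, 3473 and 2969 at 48 h. The 48 h WT cultures did not overlap those of either earlier time. The gain from 24 to 48 h was 3.13-fold (log2 1.64, SE 0.32, limma adjusted p = 0.00370), and from 12 to 48 h it was 2.45-fold (log2 1.30, adjusted p = 0.00386). HET cultures read 1071, 1235 and 1234 at 12 h, 1216, 876 and 960 at 24 h, and 3493, 2966 and 895 at 48 h. At 48 h the first HET culture was within the WT range, the second just under it, and the third within the HET range of 24 h. The HET log2 change from 12 to 48 h was 0.83 (SE 0.32, adjusted p = 0.0889), and 1.45 (adjusted p = 3.13e-05) without that culture. In the authors' deposited table the same comparison had a log2 fold change of 1.05 and an adjusted p of 0.00415.

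Cacna1i fell early in both genotypes. It (ENSMUSG00000022416; GRCm38 chr15:80287238-80398279, plus strand) read 687, 554 and 991 normalized counts in WT at 12 h, 272, 223 and 299.9 at 24 h, and 233, 154 and 329.7 at 48 h. HET cultures read 609.7, 591 and 613 at 12 h, 154, 396 and 186 at 24 h, and 433, 448 and 296 at 48 h. All 6 cultures of 12 h lay above all 12 later ones. From 12 to 24 h the fold reduction was 2.74 in WT (log2 -1.45, SE 0.31, limma adjusted p = 0.0247) and 2.68 in HET (log2 -1.42, SE 0.31, adjusted p = 0.00616). The WT call at 24 h was lost, with adjusted p from 0.0529 to 0.0939, when any 1 of the 6 cultures compared was left out. At 48 h the reduction relative to 12 h was 3.16-fold in WT (adjusted p = 0.00053), while the HET value of 1.57-fold did not pass (log2 -0.65, adjusted p = 0.167).

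The high-voltage pores Cacna1b and Cacna1c were lower at 48 h than at 12 h in WT, and Cacna1a came near the threshold. Cacna1b (ENSMUSG00000004113; GRCm38 chr2:24603887-24763152, minus strand) read 7949, 8265 and 11408 normalized counts in WT at 12 h, 7069, 9817 and 6410.15 at 24 h, and 5558, 5235 and 6908 at 48 h. Every 48 h culture was below every 12 h culture, a 1.55-fold reduction (log2 -0.63, SE 0.16, limma adjusted p = 0.00463). At 24 h the WT cultures overlapped both other times. In HET it read 8553, 7147 and 7889.85 at 12 h and 6904, 6419.7 and 6744 at 48 h, again without overlap, but the log2 change of -0.23 did not pass (adjusted p = 0.346). Cacna1c (ENSMUSG00000051331; GRCm38 chr6:118587240-119196418, minus strand) read 4687, 5014 and 8556 in WT at 12 h and 4234, 3517 and 4699 at 48 h. These groups overlapped. The HET cultures read 5672, 5575 and 6081 at 12 h and 5206, 4978 and 5585 at 48 h, a log2 change of -0.14 that did not pass (adjusted p = 0.610). The WT log2 change was -0.51 (SE 0.17, adjusted p = 0.0210), and -0.23 (adjusted p = 0.132) without WT repeat number 5 at 12 h, the highest of the 18. Without the second WT culture at 48 h it was -0.39 (adjusted p = 0.109). Cacna1a (ENSMUSG00000034656; GRCm38 chr8:84388440-84640246, plus strand) read 5300, 4913 and 6266 in WT at 12 h and 3964, 3737 and 4099.6 at 48 h, without overlap. In HET it read 5372, 3462 and 3646 at 12 h and 4212, 3782 and 3118 at 48 h, which overlapped (log2 -0.15, adjusted p = 0.634, and -0.031 without the third culture at 48 h). The WT log2 change of -0.48 (SE 0.20) had an adjusted p of 0.0568 in limma, while the authors' deposited table gave -0.48 and an adjusted p of 0.0331.

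The beta genes differed from each other. Cacnb4 (ENSMUSG00000017412; GRCm38 chr2:52428320-52676831, minus strand), a beta subunit of brain and sensory neurons, fell in 2 steps in WT, from 7193, 7383 and 8470 normalized counts at 12 h to 5079, 5562 and 5614 at 24 h and 4216, 3479 and 4419 at 48 h. No WT culture overlapped one of another time. The log2 change was -0.50 from 12 to 24 h (SE 0.12, limma adjusted p = 0.0314) and -0.43 from 24 to 48 h (SE 0.12, adjusted p = 0.0143). From 12 to 48 h it was -0.93 (adjusted p = 3.77e-05). Leaving out any 1 of the 6 cultures ended the first call (adjusted p from 0.0533 to 0.128). Leaving out the second WT repeat at 24 h or at 48 h ended the second (adjusted p = 0.0550 and 0.0846). In HET it went from 8502, 7632 and 6559 at 12 h to 4480, 5598 and 4218 at 24 h (log2 -0.67, SE 0.12, adjusted p = 0.00221), and was at 5126, 5249.9 and 5260.2 at 48 h. The HET cultures of 48 h lay within the range of those of 24 h and below those of 12 h (log2 -0.53 from 12 h, adjusted p = 0.0154). Cacnb4 shares 1433 exon bases with the antisense gene A430018G15Rik, Cacna1a 435 with Gm16183, Cacna1h 158 with Tpsg1 and Cacna2d2 82 with Gm17141. Reads of such pairs cannot be told apart without strand, and whether the authors counted by strand is not given in the sources used here.

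Cacnb3 (ENSMUSG00000003352; GRCm38 chr15:98630840-98644529, plus strand), the beta gene with the highest FPKM in these libraries, was lowest at 24 h. In WT it read 12097, 12457 and 13013 normalized counts at 12 h, 9755, 9261 and 10599 at 24 h, and 10783, 10496 and 13296 at 48 h. In HET it read 12521, 15150.4 and 13219.8 at 12 h, 9609, 9162 and 9519.9 at 24 h, and 15452, 14037 and 11827 at 48 h. Each 24 h culture of HET was below every other HET culture. The HET fall from 12 to 24 h was 1.44-fold (log2 -0.53, SE 0.11, limma adjusted p = 0.00391) and the gain from 24 to 48 h was 1.45-fold (log2 0.54, SE 0.11, adjusted p = 0.0239), or 0.64 (adjusted p = 0.000752) without the third culture at 48 h. The WT values for the same steps were -0.34 (adjusted p = 0.0771) and 0.22 (adjusted p = 0.136). The genotype difference of the first step was -0.18 (adjusted p = 0.998) and of the second 0.32 (adjusted p = 0.310).

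**Figure D2:**
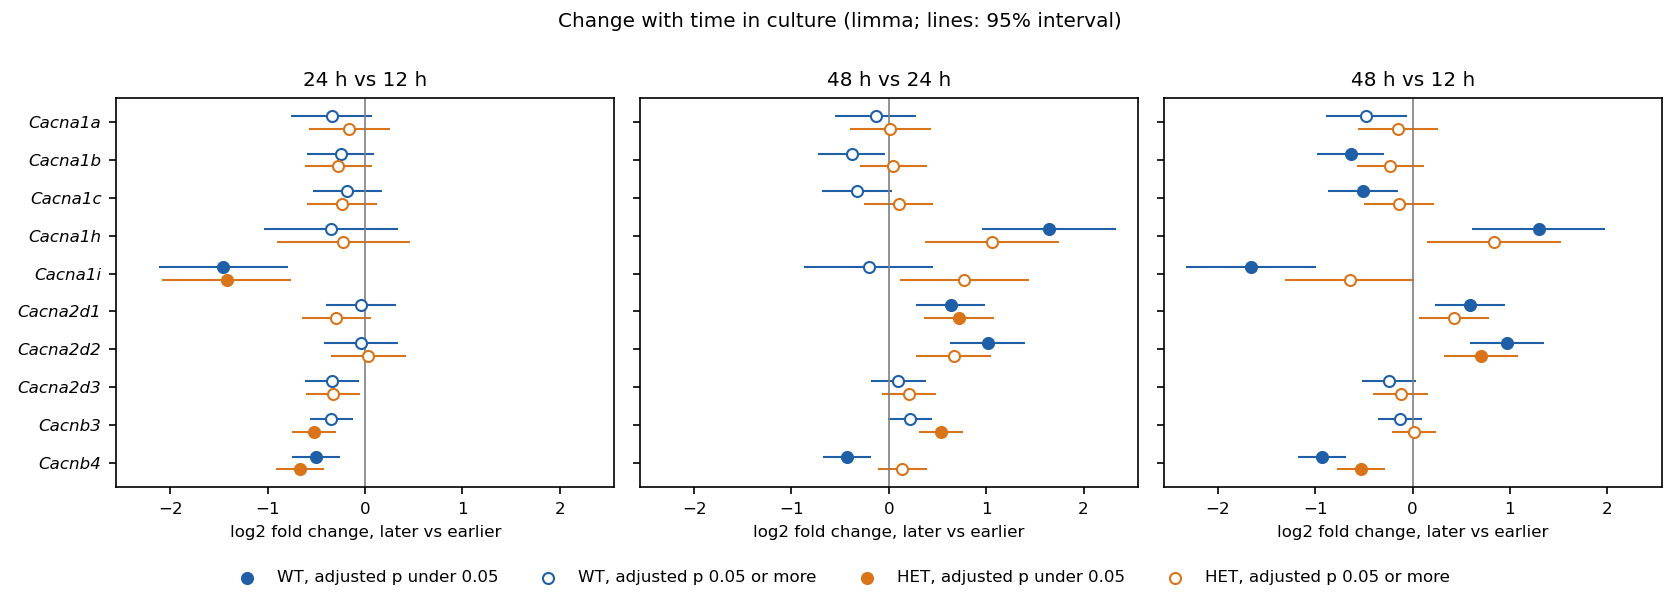
Log2 fold change of the 10 genes between times in culture (x axis, later against earlier) in WT (blue) and HET (orange); points are limma estimates from 3 cultures a group, lines their 95% intervals, and filled points have an adjusted p under 0.05. Cacna1i lay at -1.45 and -1.42 in the first step, and Cacna1h at 1.64 in WT in the second.

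Counted over the 10 genes, 2 were called from 12 to 24 h in WT, both lower, where 3.62% of all genes were called and 0.657% were called lower. From 24 to 48 h in WT 4 were called, 3 higher and 1 lower, against 27.7% of all genes in either direction, 17.4% higher and 10.3% lower. From 12 to 48 h in WT 7 were called, 3 higher (Cacna1h, Cacna2d1, Cacna2d2) and 4 lower (Cacna1b, Cacna1c, Cacna1i, Cacnb4). Over all genes 47.1% were called in that comparison, 30.0% higher and 17.1% lower, so the number of risers was at the background of the table. In HET 3 of 10 were called from 12 to 24 h, each lower, against 18.9% of all genes in either direction and 5.76% lower. From 24 to 48 h in HET 2 were called, both higher, against 2.49% and 1.42% higher. From 12 to 48 h in HET 2 were called (Cacna2d2 higher, Cacnb4 lower), against 14.2% in either direction, 10.6% higher and 3.62% lower. Without the third HET culture 4 were called in each of the last 2 comparisons, with Cacna1h and Cacna2d1 among them. The share of all genes called in that reduced fit is not given here, so the larger counts are not read as a result about the 10 genes. The 2 calls from 24 to 48 h in HET were lost when any other of the 6 cultures compared was left out (adjusted p from 0.0596 to 0.266); that of Cacna2d1 was also lost without the first WT repeat at 24 h (adjusted p = 0.0519). The 2 calls from 12 to 48 h in HET were lost without the second repeat at 12 h or the first or second at 48 h (adjusted p from 0.0670 to 0.131).

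The median log2 change of all genes from 12 to 48 h in WT was 0.11 on the normalized counts and 0.0069 on the authors' plain adjusted columns, and in HET it was 0.10 and 0.0075. Relative to the normalized-count median, the WT changes were 1.18 for Cacna1h, 0.86 for Cacna2d2, 0.48 for Cacna2d1, -0.24 for Cacnb3, -0.36 for Cacna2d3, -0.59 for Cacna1a, -0.62 for Cacna1c, -0.75 for Cacna1b, -1.04 for Cacnb4 and -1.77 for Cacna1i. The share of all calls that were higher was 63.6% in that comparison and 52.6% on the plain adjusted columns. It moved from 62.8% to 51.8% for 24 to 48 h in WT, from 69.5% to 57.1% for 12 to 24 h in HET, from 56.9% to 45.1% for 24 to 48 h in HET and from 74.5% to 51.9% for 12 to 48 h in HET. Quantile normalization gave 51.3%, 55.3% and 53.4% for the first, second and last of these 4, but 55.6% for the third, near its 56.9%.

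As shares of each class in FPKM, Cacna1h made up more and the Cav2 group less of the pores in every WT culture of 48 h than in any of 12 h, while Cacna2d1 and Cacnb3 remained the main gene of their classes. Cacna1h took 6.99% ± 0.666 of the summed FPKM of the 10 measured alpha1 genes in WT at 12 h, 6.76% ± 1.17 at 24 h and 21.5% ± 3.61 at 48 h (SD, n = 3). In HET the shares were 7.02% ± 1.16, 7.04% ± 0.765 and 14.4% ± 7.11, and the 48 h value spanned 6.27% to 19.2%. The Cav2 group of presynaptic pores (Cacna1a, Cacna1b and Cacna1e) went from 70.4% ± 2.03 to 59.3% ± 2.76 in WT between 12 and 48 h, with no overlap. In HET it went from 67.6% ± 3.63 to 61.7% ± 3.90, and these groups overlapped. Shares of a class are tied, so a larger Cacna1h share by itself lowers the others. Groups of 3 against 3 cannot give an exact permutation p below 0.1, and these WT shares reached that value. The summed FPKM of alpha1 genes was 59.4 ± 12.4 in WT at 12 h and 47.3 ± 3.29 at 48 h. For the alpha2delta genes the WT sums over the 3 times were 64.4 ± 10.9, 59.7 ± 3.54 and 91.2 ± 9.97. The HET sums were 67.2 ± 4.60 and 55.5 ± 1.86, then 66.2 to 104 over the cultures of 48 h. Cacna2d1 supplied 74.2% to 80.2% of the alpha2delta sum in the 6 group means. The share of Cacna2d3 was 17.7% ± 4.76 in WT at 12 h and 10.3% ± 1.43 at 48 h. Cacnb4 supplied 14.5% ± 0.781 of the beta sum in WT at 12 h and 8.71% ± 0.829 at 48 h, while Cacnb3 supplied 71.1% to 78.4% in the 6 group means.

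**Figure D3:**
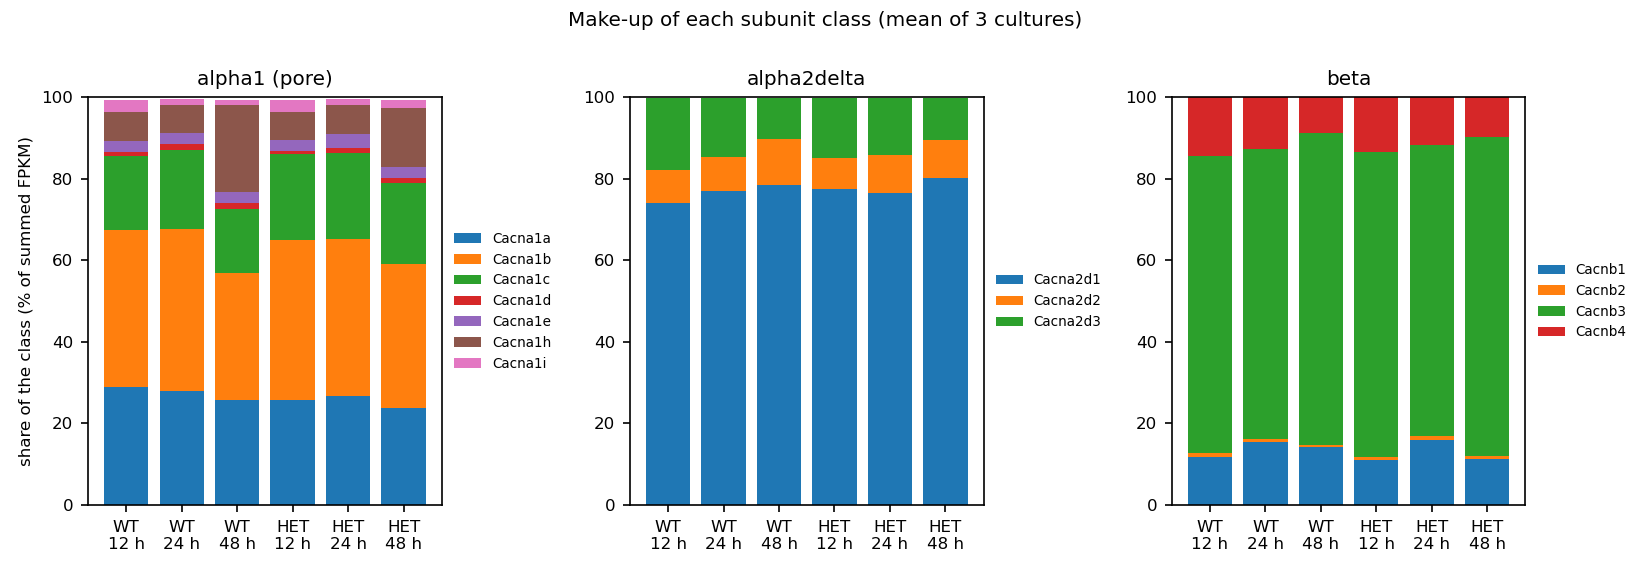
Share of each gene in the summed FPKM of its class (y axis, percent, mean of 3 cultures) in the 6 groups; alpha1 genes under 1% in all groups (Cacna1f, Cacna1g, Cacna1s) and Cacna2d4 are counted in the sums but not drawn. The Cacna1h band widened to 21.5% in WT at 48 h, and Cacna2d1 and Cacnb3 filled most of their classes in every group.

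The study compared cultures with and without a tm1a allele of Dynlrb1, and 0 of the 10 genes passed the test between genotypes at any time. At 12 h 0 were called in limma (1 at an unadjusted p under 0.05, 0 in the authors' deposited table), where 0.00581% of all genes were. At 24 h 0 were called (0 unadjusted, 0 in the authors' deposited table), against 0.00581%. At 48 h 0 were called (4 unadjusted, 0 in the authors' deposited table), against 0% of all genes called. These percentages refer to calls. The share of all genes with an unadjusted p under 0.05 is not given here. Counts at that level, here and in the lists below, are therefore not read as results about the listed genes. Averaged over the times 0 were called (1 unadjusted), against 0.0174%. The limma test at single times was weak: at 48 h it called no gene, Dynlrb1 included. At 12 h its only call was a gene higher in HET, so Dynlrb1, which was lower, was not called. The authors' deposited table gave Dynlrb1 log2 differences of -0.78 (adjusted p = 0.000148) at 12 h and -0.85 (adjusted p = 1.12e-05) at 48 h. A lack of calls at single times therefore does not show equal levels. Cacnb4 at 48 h came nearest: HET cultures at 5126 to 5260.2 normalized counts lay above WT cultures at 3479 to 4419 (log2 0.38, SE 0.12, limma adjusted p = 0.0870). Cacna1c at 48 h did not overlap either, with HET at 4978 to 5585 against WT at 3517 to 4699 (log2 0.35, SE 0.17, adjusted p = 0.237). Those 2 of 10 compare with 24.0% of all genes whose groups did not overlap at 48 h. At 12 h 1 of 10 did not overlap, against 15.1%: Cacna1h at 1071 to 1235 in HET and 1279 to 1569.65 in WT. At 24 h 0 of 10 did, against 5.60%.

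The limma intervals are a rough guide to the sizes of genotype difference that the data leave possible. They were not adjusted for the number of genes tested, so an interval that leaves out no difference is not a call. They may also be too narrow, as the residual degrees of freedom overstate what the values hold. For Cacna2d1 the averaged log2 difference was 0.00 with a 95% interval of -0.21 to 0.21, and for Cacnb3 it was 0.10 (-0.03 to 0.23). For Cacna1a it was -0.25 (-0.49 to -0.01, limma adjusted p = 0.349). For Cacna1h it was -0.36 (-0.75 to 0.04, adjusted p = 0.411), and -0.15 without the third HET culture at 48 h. An exact two-sided permutation test within times, which can reach 0.00025, gave unadjusted p-values of 0.0325 for Cacna1h and 0.06475 for Cacna1a, the lowest 2 over the 10 genes. At 48 h the log2 difference of Cacna1h was -0.71 (SE 0.32, adjusted p = 0.216), and -0.09 without that culture. Cacna1i at 48 h differed by 0.76 (SE 0.31, adjusted p = 0.175), and by 0.95 (adjusted p = 0.305) without it. Cacna2d1 averaged over times was 0.066 without it.

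**Figure D4:**
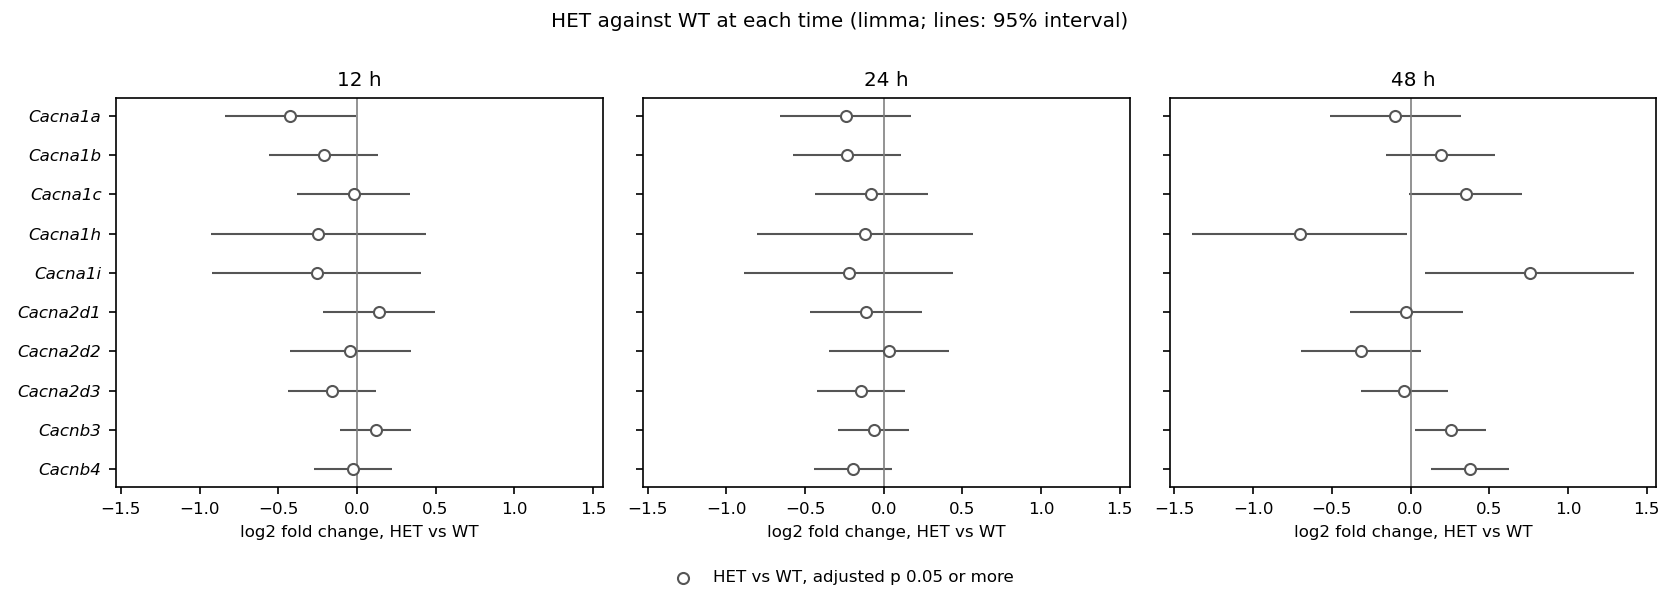
Log2 fold change of HET against WT (x axis) for the 10 genes at 12, 24 and 48 h; points are limma estimates from 3 cultures a group and lines their 95% intervals. No point has an adjusted p under 0.05; Cacnb4 at 48 h (0.38, adjusted p = 0.0870) is nearest.

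Whether the time course differed between genotypes was tested as a difference of the 12 to 48 h changes. In limma 0 of 10 genes were called, against 0% of all genes, and 2 had an unadjusted p under 0.05. For Cacna1i the HET change exceeded the WT change by 1.01 (SE 0.45, adjusted p = 0.548) and for Cacnb4 by 0.40 (SE 0.17, adjusted p = 0.548). For Cacna1h the difference was -0.46 (SE 0.46, adjusted p = 0.729), and 0.15 without the third HET culture at 48 h. For Cacna2d1 it was -0.16 and for Cacna2d2 -0.27, and both were 0.03 without that culture.

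Of 14 other subunit genes measured, 3 were called from 12 to 48 h in WT, against 47.1% of all genes in either direction and 17.1% lower. All 3 were lower: Cacnb2 (log2 -0.52, limma adjusted p = 0.0113) and the gamma genes Cacng3 (-1.26, adjusted p = 0.00945) and Cacng8 (-1.01, adjusted p = 0.0307), which encode AMPA receptor auxiliary proteins. In HET 0 of 14 were called from 12 to 48 h (2 at an unadjusted p under 0.05, 0 in the authors' deposited table). Between genotypes 0 of 14 were called in any comparison; at 12 h 5 had an unadjusted p under 0.05, at 24 h 0 and at 48 h 1. The median log2 change from 12 to 48 h in WT was -0.14 over these 14, -0.36 over the 10 and 0.11 over all genes.

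Of 21 genes whose products regulate or bind these channels, 13 were called from 12 to 48 h in WT, 5 higher and 8 lower, where 47.1% of all genes were called, 30.0% higher and 17.1% lower. The 5 that rose included Thbs1 (log2 1.35, limma adjusted p = 0.000956), Thbs2 (3.72, adjusted p = 0.00116) and Thbs3 (1.28, adjusted p = 0.00251), which encode thrombospondins, secreted ligands of alpha2delta-1, and Lrp1 (1.15, adjusted p = 0.00254), an endocytic receptor that aids alpha2delta trafficking. The fifth was Rimbp2 (0.87, adjusted p = 0.00669), an active zone protein that binds Cav2 pores. The 8 that fell included the small GTPases Gem (-1.42, adjusted p = 0.000223) and Rem2 (-1.54, adjusted p = 0.000748), which hold back high-voltage channels through their beta subunits. Dpysl2, which encodes the Cav2.2 partner CRMP2, fell by 0.69, and the calmodulin genes Calm2 and Calm3 fell by 0.41 and 0.42. Thbs4 (-1.63, adjusted p = 0.00846) and the active zone gene Rims1 (-0.42, adjusted p = 0.00133) also fell, Thbs4 at a mean of only 0.13 FPKM. In HET 7 of 21 were called, against 14.2% of all genes, 4 higher (Thbs1, Thbs2, Thbs3, Lrp1) and 3 lower, Rem2 and Dpysl2 among them. Fibroblasts express thrombospondins as well; the part of these cells, of whose 6 markers 4 rose in WT and 3 in HET, was not tested. Between genotypes 0 of 21 were called in limma (1, 0 and 8 at an unadjusted p under 0.05 at 12, 24 and 48 h, and 0, 0 and 1 in the authors' deposited table).

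Among 9 genes known to rise in injured sensory neurons, 5 rose from 12 to 48 h in WT: Npy (log2 5.31), Sprr1a (4.52), Csrp3 (3.75), Ecel1 (3.46) and Gap43 (0.52). Csrp3 was low, with a mean of 0.44 FPKM over the 18 libraries. Jun fell by 0.62, and Atf3 (-0.48), Gal (0.26) and Sox11 (-0.02) did not pass. These changes start from cultures already cut, and some genes peaked between the 2 times. Atf3 averaged 27887 normalized counts in WT at 12 h, 40305 at 24 h and 20061 at 48 h. Its 24 to 48 h log2 change was -1.02 (limma adjusted p = 0.00425). Sox11 averaged 13993, 20948 and 13650. Over the same interval 9 of 12 sensory subtype markers fell and 0 rose. Of all genes 30.0% were called higher and 17.1% lower in that comparison. In HET, 4 of the 9 injury genes were called from 12 to 48 h, 3 higher and 1 lower, against 10.6% and 3.62% of all genes. Between genotypes at 48 h 0 of 9 were called in limma, against 0% of all genes, and 2 of 9 were higher in HET by sign. The unadjusted limma p was under 0.05 for 5, and the authors' deposited table called 3. Those 3 were lower in HET: Ecel1 (log2 -1.98, limma adjusted p = 0.0516), Sprr1a (-2.55, 0.0532) and Npy (-2.93, 0.0543).

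By correlation of log2 values over the 18 libraries, the genes most like Cacna2d1 among 12476 with a mean normalized count of at least 100 were Mgat4a (Pearson r 0.95), Ctdspl, Hells, St6galnac5 and Ebf1 (each 0.93). Those most like Cacna1i were Tln2 and Sv2a (each 0.97), Thsd7b, Kcnb2 and Adam22 (each 0.94), and Cacnb4 was among its nearest 100. The points share their libraries and times, and the values describe likeness only.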

How the data were processed

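RNA sequencing of 18 mouse DRG cultures was deposited as 1 table of 17198 genes. Per the file headers the authors gave normalized counts, a signal without whole numbers whose column totals were 41509705 to 41509874, FPKM values, and plain adjusted columns, also a signal, with totals of 39465712 to 44213485. The authors' log2 fold changes and adjusted p-values, deposited in the same table, were read for comparison only. The submitters' processing notes name CASAVA 1.8.2, edgeR and mm10; the aligner, counter, annotation and gene filter are not given in the sources used here. A further 24 per-sample columns were not used. The plain adjusted columns span 15 of 17 possible dimensions, so 2 directions among samples had been removed by a step the headers do not describe, and 12 residual degrees of freedom overstate what the values hold.

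As the columns used hold no raw counts, the test was limma 3.58.1 in R 4.3.3: log2(normalized count + 1), genes with a mean of at least 1 (0 removed), 1 coefficient for each of 6 groups in all 18 samples, eBayes with trend (5 prior degrees of freedom), Benjamini-Hochberg adjustment over 17198 genes per comparison and a threshold of 0.05. A pseudocount of 1 understates fold changes of low genes. The procedure was also run on simulated data with independent noise in each gene and few changed genes. That simulation held neither the removed directions nor an outlying culture, so it does not check the procedure under those features. Groups and repeat numbers come from the sample titles, and p-values measure the spread between cultures. The 10 genes and all gene lists were chosen with earlier results of these data known; all 10 genes are named, and genes past the threshold from 12 to 48 h in WT in the lists of other subunits, regulators and injury markers, except 1 that is not reported here; cell type markers are given as counts and sums. Alternatives were the plain adjusted columns, pseudocounts of 0.1 and 5, a minimum mean of 5, quantile normalization, a block, the missing directions as covariates, fits of only the groups compared, and leaving out each culture; DESeq2 needs counts and was not run. Gene positions are GENCODE M21 (GRCm38, the assembly called mm10) and promoters RefSeq (GRCm38.p6).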

Additional observations from a re-analysis of the deposited data

Results flagged for a closer look

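These results are listed because the cultures of the 2 genotypes, or of 2 times, all lay on opposite sides of the mean log2 value they were compared with; each difference was tested with an interaction term in limma, and none passed. From 24 to 48 h every WT culture of Cacna1c and Cacnb4 lay below the WT mean of 24 h and every HET culture above the HET mean, and the HET change exceeded the WT change by 0.43 (adjusted p = 0.384) and 0.57 (adjusted p = 0.180) on the log2 scale. For the genotype difference, Cacna1b HET cultures lay below the WT mean at 12 h and above it at 48 h, a shift of 0.40 (adjusted p = 0.578), and Cacna1i likewise, a shift of 1.01 (adjusted p = 0.548). Cacna2d1 and Cacnb3 HET cultures lay above the WT mean at 12 h and below it at 24 h, shifts of -0.25 and -0.18 (both adjusted p = 0.998). Cacnb3 HET cultures lay above the WT mean again at 48 h, a shift of 0.32 from 24 h (adjusted p = 0.310). The interaction terms for the steps of 12 to 24 h and 24 to 48 h were added after seeing the data.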

How the results depend on the processing

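The number of the 10 genes called between genotypes, or in the difference of their time courses, was 0 in each of 134 alternative settings. The 20 log2 fold changes called in time comparisons kept their direction in 540 of 540 settings and their call in 501. Counts that moved by over 1.5 times were those of 48 against 24 h in HET (2; 5 with a replicate block, 4 with the missing directions as covariates, 0 with only the samples compared) and of 48 against 12 h in HET (2; 4 with the replicate block, 0 with only the samples compared). Repeat number 3 occurs only at 48 h, so in time comparisons that block gave no weight to the third culture of either genotype at 48 h. Its HET counts are thus close to leaving out the third HET culture, not a separate check. Leaving out 1 culture gave 0 to 3 calls for 24 against 12 h in WT and 2 to 5 for 48 against 24 h in WT. It gave 0 to 4 for 48 against 24 h and for 48 against 12 h in HET. From 12 to 48 h in WT the count was 6 to 9, with Cacna1a and Cacna2d3 added on the plain adjusted columns and under quantile normalization. Over all genes 7937 and 7652 were called in those 2 settings, against 8098. Shares of all genes called with the block, the covariates, the groups compared only or 1 culture left out are not given here. The counts that moved in those fits are therefore not read as a result about the 10 genes. Some uncalled values changed sign. On the plain adjusted columns Cacna2d1 in HET against WT at 48 h was 0.0012 and Cacnb3 from 12 to 48 h in HET was -0.087, which was -0.026 with the missing directions. Under quantile normalization Cacna2d3 at 48 h was 0.036 and Cacna2d1 averaged over times -0.032. Leaving out 1 culture gave -0.19 to 0.022 for Cacna1a, -0.16 to 0.17 for Cacna2d1 and -0.15 to 0.084 for Cacna2d3 in HET against WT at 48 h. For the averaged difference the ranges were -0.043 to 0.18 for Cacna1i and -0.043 to 0.066 for Cacna2d1. For the difference of time courses they were -0.83 to 0.15 for Cacna1h, -0.36 to 0.033 for Cacna2d1, -0.47 to 0.033 for Cacna2d2 and -0.011 to 0.24 for Cacna2d3, and for 12 to 48 h in HET -0.27 to 0.049 for Cacna1a and -0.076 to 0.12 for Cacnb3. In the difference of time courses, Cacna1h, Cacna2d1 and Cacna2d2 changed sign only without the third HET culture at 48 h. With only the samples compared, Cacna1c from 12 to 48 h in WT was not called (adjusted p = 0.0797). Over all genes, quantile normalization gave 276 calls between genotypes at 48 h against 0, and 1596 from 12 to 48 h in HET against 2442. The causes were not tested. Repeat numbers were not treated as pairs: over 9 same-numbered pairs the deviations from group means had a mean r of 0.17 (-0.21 to 0.46), and 8 of 9 samples correlated best with their own number, a hint from the data. The unknown depth prevents any detection limit.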
